A study of Triticum aestivum with 96 samples.

Results

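A set of 150 wheat probesets had a higher signal in the winter habit line than in the spring habit line of both a cold-hardy and a cold-tender background, over the middle of a long cold treatment. The members were chosen from the data. For each probeset and background, D was the mean log2 signal at 14, 21, 35 and 42 days in the winter line minus that in the spring line. Of the 61179 probesets other than controls, 51747 were left after those with names ending in _x_at or _s_at and 27 probesets of genes that the study had listed were set aside, and 19122 of these had a mean of 7 or more on the log2 scale in at least 1 group of line and day. D was 0.5 or more (a 1.41-fold difference) in both backgrounds for 209 of them, and the 150 with the largest smaller D were taken. The winter minus spring difference at those 4 days is therefore what chose the members and is given as a description. Differences were tested only between groups of 0, 2, 56 and 70 days. The arrays of these days entered the choice through the brightness minimum and through the 27 probesets set aside. The spread used in the tests was estimated from all 96 arrays, those of the days that chose the members included.

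Wheat of winter habit needs a long exposure to cold, vernalization, before it changes from vegetative to reproductive growth, and the MADS-box gene Vrn-A1 is a main switch of that change. Cold acclimation is the slow gain of freezing tolerance at low temperatures above freezing. C-repeat binding factors (CBFs) are transcription factors that act early in it, and their targets include cold-regulated (COR) proteins and dehydrins, which are hydrophilic proteins that accumulate when cells lose water. Cereals are known to acclimate most strongly while their shoot apex is still vegetative.

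Crowns, which hold the shoot apex and the bases of the leaves, were taken from seedlings at the 3-leaf stage after 0, 2, 14, 21, 35, 42, 56 or 70 days at 6 °C. The 4 lines were winter Norstar (vrn-A1, the hardy parent), spring Norstar (Norstar carrying Vrn-A1 from Manitou), spring Manitou (Vrn-A1, the tender parent) and winter Manitou (Manitou carrying vrn-A1 from Norstar). The near-isogenic lines came from repeated backcrossing with selection for growth habit, so any gene beside Vrn-A1 on the exchanged segment moved with it, and each sample was a pool of crowns. There were 3 biological replicates for each of 32 combinations of line and day, so p-values measure the spread between these pools, and an Affymetrix Wheat GeneChip was used for each of the 96 samples. All groups except those at 0 days share the cold treatment, so habit was compared within a day and a background.

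The deposited values were log2 signals after RMA, with array medians from 5.66 to 5.78. Arrays of a group correlated with r of 0.971 or more across probesets. At 0 days the replicate 2 array was the farthest from its group mean in all 4 lines, with a root mean square deviation of 0.22 to 0.29 on the log2 scale. The Vrn-A1 probeset bore out the labels. At 0 days its log2 signal was 5.14, 5.50 and 5.61 in winter Norstar and 9.56, 9.33 and 9.58 in spring Norstar, and 4.38, 5.97 and 5.30 in winter Manitou and 9.78, 9.47 and 9.72 in spring Manitou. At 56 days the means of the winter lines were 10.99 in Norstar and 11.65 in Manitou. Gene names came from the study's table of descriptions, of which 1742 probesets were held here and which the study had selected on these samples. It covered 64 of the 150 members, and 48 had a description that named a product. The other members are given by their probeset. Names of probesets that share a transcript cluster were found for 15 members in 7 clusters, so that these are not independent of each other. Cluster names can miss others. Ta.28068.1.S1_at and Ta.8554.1.S1_at carry the same gene symbol, and Ta.1814.1.S1_at shares a description with the probesets of cluster Ta.13165.

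The smaller D ran from 0.55 to 2.74 among the members, with a median of 0.72, and was 1 or more for 30. The median D was 0.98 in the Norstar and 0.76 in the Manitou background, against -0.01 and 0.00 over all 19122 probesets that were bright enough, and D was larger in Norstar for 110 of the 150. The threshold cut through a continuous range: the smaller D was 0.55 for the last 5 members (Ta.13242.3.S1_a_at, Ta.29314.3.A1_a_at, Ta.6648.1.S1_at, TaAffx.104648.1.S1_at and Ta.9679.1.A1_at). It was also 0.55 for 4 of the 5 probesets just outside (Ta.1434.1.A1_at, Ta.8669.1.S1_at, TaAffx.11276.1.S1_at and Ta.18063.1.S1_a_at) and 0.54 for Ta.12102.1.S1_a_at.

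The probeset with the largest smaller D was Ta.23397.2.S1_at, whose description names a pherophorin-like protein and, for the closest rice gene, a retrotransposon. Its D was 3.05 in Norstar and 2.74 in Manitou. The samples of the 2 habits were already apart before the cold. At 0 days its log2 signal was 10.89, 11.28 and 11.42 in winter and 9.53, 9.71 and 10.28 in spring Norstar, and 10.81, 10.91 and 11.03 in winter and 9.66, 9.43 and 10.13 in spring Manitou. These groups did not overlap, but the differences of 1.36 (adjusted p = 0.013) and 1.18 (adjusted p = 0.13) did not pass the test. At 2 days its log2 signal was 10.77, 11.36 and 10.94 in winter Norstar and 9.61, 9.64 and 9.38 in spring Norstar, a difference of 1.48 that passed (SE 0.29, adjusted p = 0.0056, limma). In Manitou at 2 days the samples were 9.99, 10.05 and 9.63 in the winter and 8.92, 8.90 and 7.90 in the spring line, which did not overlap either, but the difference of 1.32 did not pass the test.

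Few members passed the test between the habits before and at the start of the cold treatment, although most differences lay above 0. At 0 days 1 member was called higher in winter than in spring Norstar (adjusted p under 0.01 here and below), with 0.0539% of all 31543 probesets tested called higher and 0.0285% lower, and 1 in Manitou, with 0.0222% and 0.0127%. With a block for the replicate number within each day the counts were 4 and 2, and without replicate 2 at 0 days they were 0 and 1. At 2 days 1 member was called in Norstar, with 0.0222% of all probesets called higher and 0.0285% lower, and 3 in Manitou, with 0.019% and 0.0254%, and with the block 2 and 5. Without any 1 of the 3 replicates 0 members were called in Norstar at 0 or 2 days, and without replicate 3, 1 was called in Manitou at 2 days. The median difference between winter and spring line was 0.21 at 0 days and 0.12 at 2 days in Norstar, and 0.10 and 0.20 in Manitou, against medians within 0.02 of 0 over all probesets tested. The difference was above 0 for 112 to 134 of the 150 members in these 4 comparisons. The 5 members called at 0 or 2 days, chosen after their values were seen, were Ta.13307.3.S1_at in Norstar at 0 days, Ta.23397.2.S1_at in Norstar at 2 days, TaAffx.65068.1.A1_at in Manitou at 0 and 2 days, and TaAffx.98930.1.A1_at and TaAffx.70677.1.S1_at in Manitou at 2 days.

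**Figure D1:**
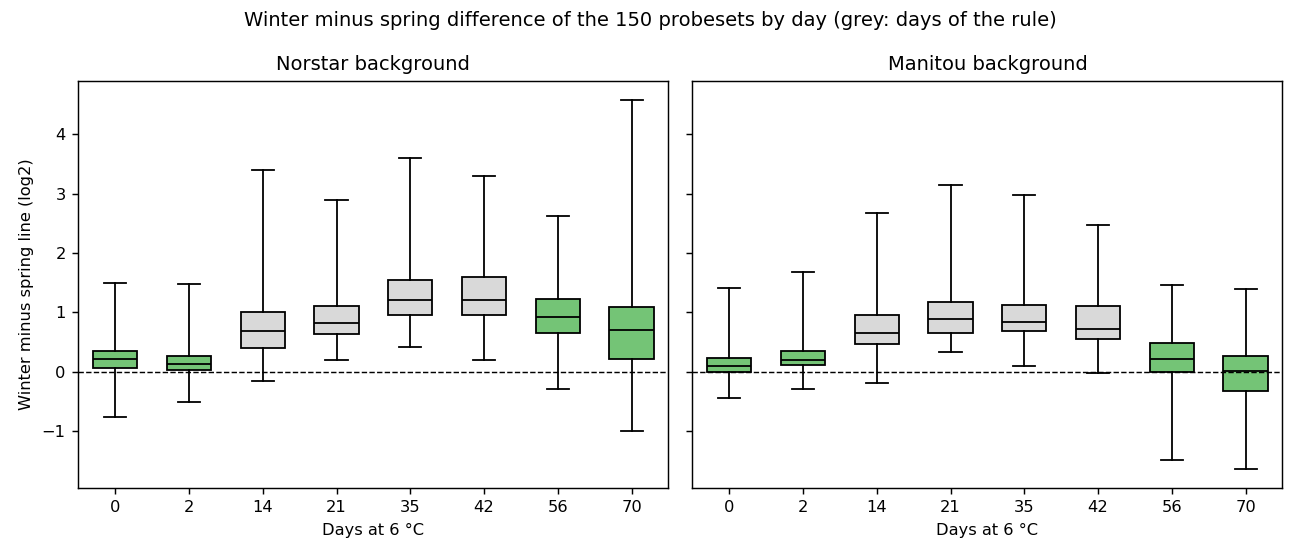
Winter minus spring difference (log2) of the 150 probesets at each day in the Norstar (left) and Manitou (right) background. Boxes span the quartiles with the median as a line, whiskers reach the lowest and highest probeset, and grey boxes are the days that chose the members. The median at 0 and 2 days is 0.21 and 0.12 in Norstar and 0.10 and 0.20 in Manitou. At 56 and 70 days it is 0.92 and 0.70 in Norstar and 0.21 and 0.00 in Manitou.

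After the days used for the choice, many members stayed higher in the winter line of the Norstar background. In Manitou fewer did at 56 days, and at 70 days the shares called were near those of all probesets. At 56 days 87 of 150 members (58.0%) were called higher in winter than in spring Norstar and 0 lower, where 3.0% of all probesets tested were called higher and 4.06% lower. At 70 days 63 (42.0%) were higher and 1 lower, against 9.17% and 6.65% of all probesets. The median difference was 0.92 (1.90-fold) at 56 days and 0.70 (1.62-fold) at 70 days. In Manitou 8 members (5.3%) were higher and 0 lower at 56 days, against 2.04% and 1.99% of all probesets. At 70 days 6 (4%) were higher and 4 (2.7%) lower there, against 3.73% and 3.01%. The medians there were 0.21 and 0.00, and 75 of the 150 differences lay below 0 at 70 days. The counts moved with the samples: without replicate 1 the Norstar count at 56 days was 50, and the Manitou count at 56 days was 2 without replicate 1 or 2. At 70 days in Manitou 1 member was called higher without replicate 2 and 3 without replicate 3. In Manitou at 56 days 18 members were called higher with the block within day, 25 with array weights and 4 in a fit to Manitou alone. In whole crowns a loss of cells of a type and a lower level per cell cannot be told apart. Of 47 markers of dividing cells, 2 were called higher in winter than in spring Norstar at 56 days and 45 at 70 days, and 35 and 44 in Manitou, and 0 of them are members. Their summed log2 signal in the 3 samples of each group at 56 days was 17.85 to 17.90 in winter and 17.63 to 17.81 in spring Norstar, and 17.85 to 17.93 in winter and 17.13 to 17.68 in spring Manitou. At 70 days it was 17.79 to 17.86 in winter and 16.96 to 17.21 in spring Norstar. Of 7 markers of the shoot meristem 1 was higher and 3 were lower in winter Norstar at 56 days, and 5 were higher and 1 lower at 70 days. In Manitou 5 and 6 of these 7 were higher at 56 and 70 days and 0 lower. Their summed log2 signal at 56 days was 10.76 to 10.98 in winter and 11.29 to 11.35 in spring Norstar. At 70 days it was 11.21 to 11.26 in winter and 11.06 to 11.23 in spring Norstar. Of 17 markers of green tissue, 2 of which are members, 1 was higher and 1 lower in winter Norstar at 56 days, 1 higher and 2 lower at 70 days, and 0 were called in Manitou at either day. Of 2 markers of senescing tissue 1 was higher and 1 lower in winter Norstar at 56 days, 1 was lower at 70 days, and 0 were called in Manitou. The markers were taken by words in the descriptions, or from the 27 probesets that the study listed, and both were selected by it on these samples. The shares of all probesets do not allow for that, so the marker counts are a description. The part of cell makeup in these differences was not tested.

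The list of cold-regulated and late embryogenesis abundant (LEA) proteins, which act in cold acclimation, held 12 members and 26 other probesets tested. Of the 12 members 8 were called higher in winter Norstar at 56 days and 4 at 70 days, against 3.0% and 9.17% of all probesets. In Manitou 0 were at either day, against 2.04% and 3.73%. Gene lists hold only probesets with a description, which the study had selected on these samples. Some of the 12 share a transcript cluster, Ta.13165 or Ta.28917, and are not independent of each other. The median difference of the 12 was 1.01 at 56 days in Norstar and 0.23 in Manitou. The member of this list with the largest smaller D was the LEA probeset Ta.24158.1.S1_a_at. Its mean difference over 56 and 70 days was 1.36 in Norstar and -0.17 in Manitou. The backgrounds differed in this by 1.54 (SE 0.42), which did not pass (adjusted p = 0.017, limma). The dehydrin probeset Ta.2787.1.S1_at (WZY1-1), chosen after its values were seen, had a log2 signal of 8.07, 7.75 and 8.36 in winter Norstar at 56 days and 6.38, 5.99 and 6.29 in spring Norstar. These samples did not overlap, and the difference was 1.84 (SE 0.19, adjusted p = 4.2e-11). In Manitou at 56 days the same dehydrin stood at 5.92, 5.96 and 6.26 in the winter line and 5.61, 5.26 and 5.97 in the spring line, which overlapped.

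The brighter dehydrin Ta.25026.1.S1_at separated the habits less at the end of the treatment. At 56 days it had a signal of 12.94, 12.84 and 12.86 in winter Norstar and 12.02, 12.03 and 12.01 in spring Norstar. These values did not overlap, but the difference of 0.86 (SE 0.25, adjusted p = 0.015) missed the threshold. At 70 days the samples were 12.77, 12.23 and 12.86 against 12.62, 12.25 and 12.35, and overlapped. Winter Manitou held 10.83, 10.31 and 11.01 at 56 days, where spring Manitou held 10.44, 9.35 and 10.40. The description of 3 members is the cold acclimation protein WCOR518. At 56 days 2 of these passed in Norstar and at 70 days 1. Ta.23758.1.S1_at was higher by 1.31 in winter Norstar at 56 days (SE 0.24, adjusted p = 3e-05) and by 1.18 at 70 days (adjusted p = 7.5e-05), and the differences of 0.76 and 0.10 in Manitou did not pass. Ta.28917.2.S1_a_at was higher by 1.12 in winter Norstar at 56 days (adjusted p = 0.0047) and differed by 0.69 at 70 days, which did not pass. Ta.28917.1.S1_at differed by 0.75 and 0.48, and neither passed. Of the small hydrophobic membrane proteins of the RCI2 type, which are induced by cold and salt in plants, Ta.28369.1.S1_at (OSR8) differed by 0.93 and Ta.4222.1.S1_at (lt101.2) by 0.76 at 56 days in Norstar, and both passed, but at 70 days the differences were 0.29 and 0.03 and neither did. The LEA probeset Ta.6019.1.S1_at held its difference, with 8.45, 8.04 and 7.82 in winter and 5.67, 5.49 and 5.89 in spring Norstar at 56 days and 8.64, 7.91 and 8.66 against 5.68, 5.72 and 6.50 at 70 days. It differed by 2.42 and 2.44 (SE 0.40 each), and in Manitou by -0.33 and 0.10, which did not pass.

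One member with a description was a CBF, Ta.2781.1.S1_at (CBFIVb-A20), with group means between 4.88 and 5.56 at 0 days. At 56 days it was 6.35, 6.11 and 6.52 in winter Norstar and 4.63, 4.56 and 4.97 in spring Norstar, a difference of 1.61 (SE 0.31, adjusted p = 0.00011). By 70 days the values were 4.96, 4.87 and 4.85 against 4.80, 4.72 and 4.34, and the difference of 0.27 did not pass. In winter Manitou it was 4.73, 4.81 and 4.66 at 56 days, beside 4.43, 4.54 and 4.78 in spring Manitou. On the days that chose it, its mean in winter Norstar was between 7.10 and 7.40, and in spring Norstar it was 5.38 at 14 days and 4.93 at 42 days. Its values in Manitou at 56 days, in Norstar at 70 days and in spring Norstar at 56 days lie below 5.15. That was the brightness limit for the highest group mean of a tested probeset. Signals this dim do not show that the habits were alike.

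The list for carbohydrates and fructan, matched by words in the descriptions, held 8 members. These include the light-harvesting probesets Ta.3249.1.S1_at and Ta.3249.3.A1_at, matched through a rice starch synthase, and the amylase inhibitor-like Ta.20930.1.S1_at. Of the 8, 4 were called higher in winter Norstar at 56 days, against 3.0% of all probesets. At 70 days 1 was higher and 1, Ta.3249.1.S1_at, was lower, against 9.17% and 6.65%. In Manitou 0 were called at either day. Galactinol synthase makes the galactosyl donor of raffinose, a sugar that accumulates in the cold, and was present with the probesets Ta.30113.1.S1_at and Ta.13008.1.S1_at. Ta.30113.1.S1_at was 8.31, 7.97 and 7.77 in winter Norstar at 56 days and 7.22, 6.68 and 6.69 in spring Norstar, higher by 1.16 (SE 0.23, adjusted p = 0.00011). At 70 days its samples were 8.25, 7.10 and 8.05 against 7.60, 7.26 and 6.98, which overlapped. Ta.13008.1.S1_at differed by 0.72 and 0.45, and neither passed. Sucrose synthase, which splits sucrose reversibly, was higher by 1.05 at 56 days in winter Norstar (Ta.11152.2.A1_a_at, SE 0.17, adjusted p = 3.8e-06) and differed by 0.54 at 70 days (adjusted p = 0.013). The hexokinase probeset Ta.5163.1.S1_at, for an enzyme that phosphorylates glucose, was higher by 1.06 and 0.82 at 56 and 70 days (adjusted p = 1.1e-09 and 3.1e-07). None of these 4 probesets passed in Manitou at 56 or 70 days. Among transport proteins, the aquaporin Ta.25860.1.A1_at, of the PIP2 type that carries water across the plasma membrane, was 10.07, 10.11 and 10.30 in winter and 8.01, 8.16 and 8.32 in spring Norstar at 56 days, a difference of 2.00 (SE 0.31, adjusted p = 1.2e-06). It was also 2.00 higher at 70 days. In Manitou the aquaporin stood at 7.44, 6.86 and 7.64 in the winter and 6.28, 5.53 and 6.61 in the spring line at 56 days, which did not overlap (difference 1.18, adjusted p = 0.008), and at 5.95, 5.40 and 5.41 against 6.04, 5.15 and 5.11 at 70 days, which did. The Manitou difference at 56 days did not pass without any 1 of the 3 replicates.

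The list of defence proteins and protease inhibitors held 7 members, which include the 3 WCOR518 probesets. In winter Norstar 5 were called higher at 56 days and 2 at 70 days, against 3.0% and 9.17% of all probesets. In Manitou 0 were called on these days. The defensin Ta.27229.1.S1_at, of a family of small antimicrobial peptides, was higher by 1.00 at 56 days and by 1.16 at 70 days in Norstar (adjusted p = 0.00058 and 2.4e-05), and differed by 0.27 and 0.14 in Manitou. The cell wall list held 4 members, of which 2 were higher in winter Norstar at 56 days and 1 at 70 days, and 0 and 1 in winter Manitou. The shares of all probesets called higher were 3.0% and 9.17% in Norstar and 2.04% and 3.73% in Manitou. The glycine-rich proteins Ta.28983.1.S1_at and Ta.6187.1.S1_at were higher by 1.08 and 1.36 in Norstar at 56 days, and Ta.6187.1.S1_at by 1.12 at 70 days. The member called in Manitou at 70 days, chosen after its values were seen, was the proline-rich protein Ta.3573.3.S1_a_at, higher by 0.74 (adjusted p = 6.5e-05).

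A different course was seen in members that were not called higher from 0 to 2 days in any line. The probeset Ta.7915.1.A1_at, with no name here, was between 8.21 and 9.72 in every sample at 0 days. It fell from 2 to 70 days in all 4 lines. In winter Norstar it was 7.86, 7.95 and 7.85 at 56 days and 7.15, 7.15 and 7.30 at 70 days, while spring Norstar stood at 4.61, 5.58 and 5.72 and then at 4.35, 3.74 and 4.31. The differences were 2.58 and 3.07 (SE 0.30 each, adjusted p = 1.2e-09 and 2.5e-12). Winter Manitou lay at 6.64, 6.04 and 5.69 at 56 days, above 2 of the 3 spring Manitou samples (5.20, 5.42 and 6.08), and the difference of 0.56 did not pass. Ta.28351.1.S1_at had the largest difference of all members at 70 days in Norstar, with 10.67, 10.42 and 10.77 in the winter and 5.39, 6.12 and 6.59 in the spring line (4.59, SE 0.51, adjusted p = 6.4e-11). In spring Manitou its samples at 70 days ranged from 4.88 to 9.12, and the difference of 1.40 from the winter line did not pass. The peroxiredoxin Q probeset Ta.6572.1.S1_at, for a chloroplast enzyme that removes peroxides, was higher by 1.15 and 0.98 at 56 and 70 days in Norstar (adjusted p = 2.9e-05 and 0.00017).

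The light-harvesting probesets did not keep their difference. Ta.3249.1.S1_at, whose description names a chlorophyll a/b-binding protein of photosystem II and, for the closest rice gene, a starch synthase, had a D of 0.98 in Norstar and 0.79 in Manitou. At 56 days its samples in winter Norstar (9.81, 9.89 and 9.74) lay within the range of spring Norstar (9.51, 10.00 and 10.03). At 70 days it was 8.58, 8.25 and 9.52 in winter Norstar against 9.21, 9.53 and 9.92 in spring Norstar, and this was the 1 member called lower there (-0.77, SE 0.22, adjusted p = 0.0058). The probeset Ta.3249.3.A1_at of the same cluster, described by both names as well, differed by 0.21 and -0.31 and did not pass. The MADS-box factor TaAGL18 (Ta.21250.1.S1_at) differed by 0.28 and 0.07 in Norstar and by 0.16 and 0.02 in Manitou, and none of these passed.

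**Figure D2:**
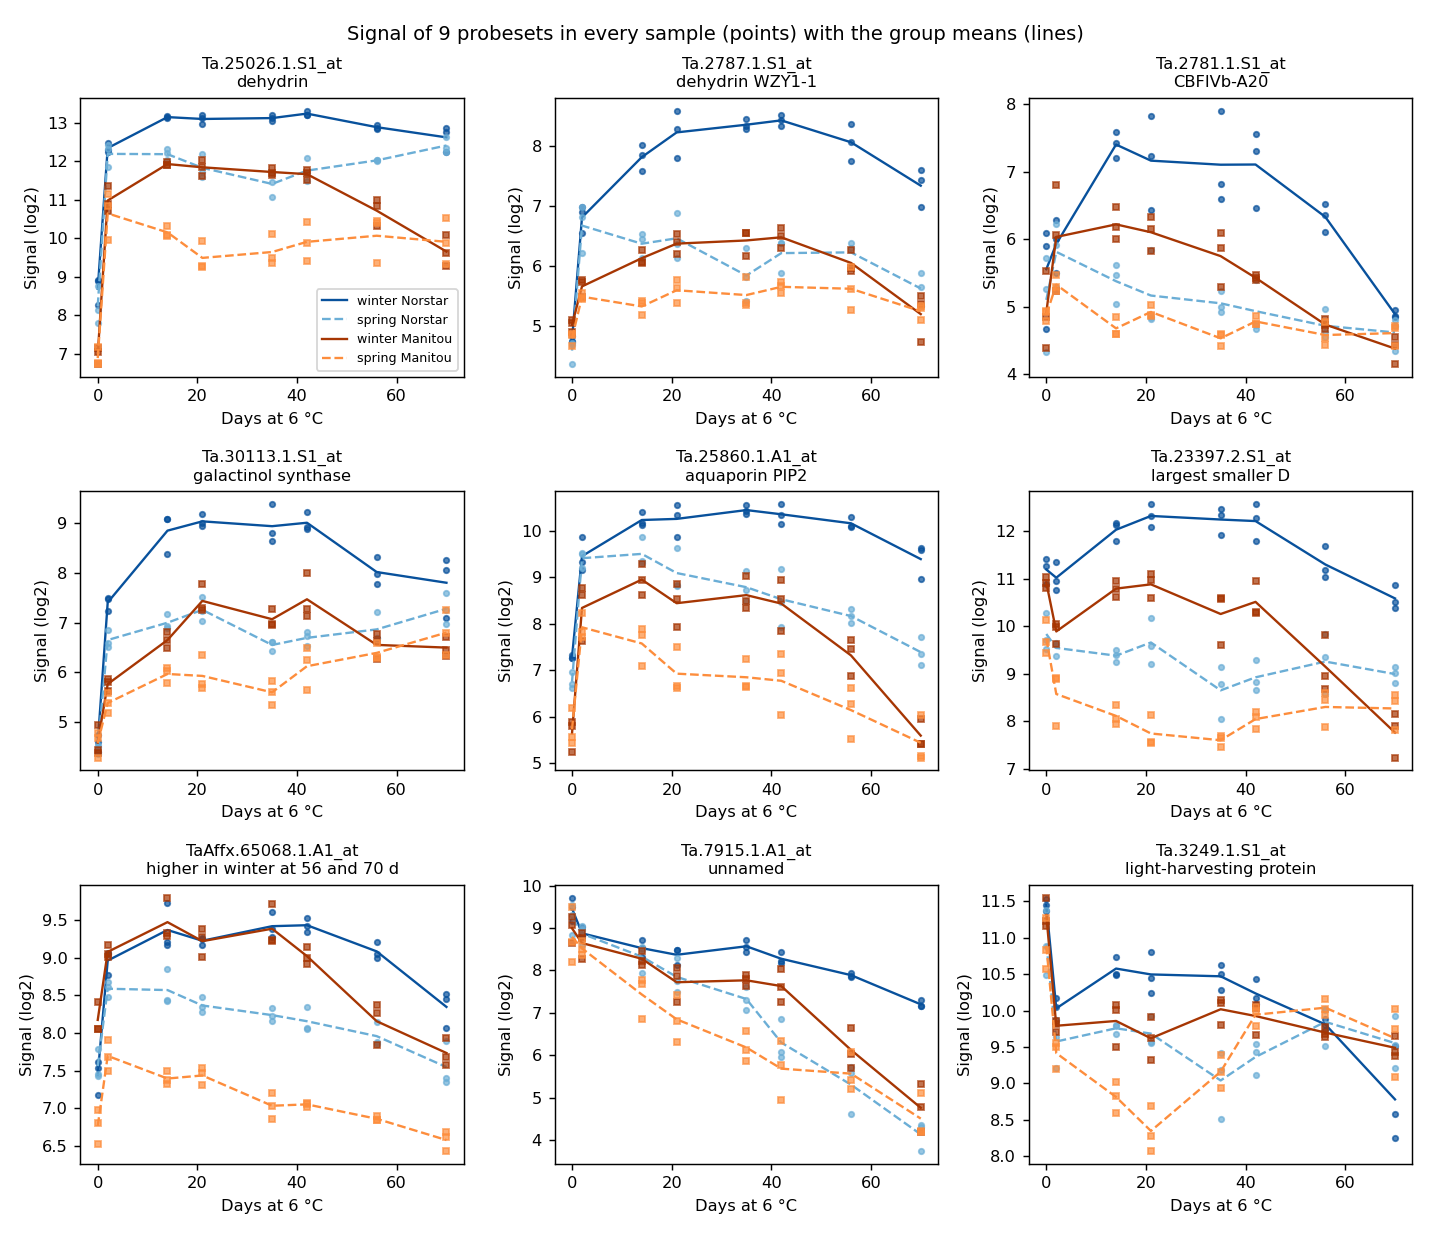
Log2 signal of 9 probesets against days at 6 °C. Points are samples, lines join the means of 3 samples, blue circles are Norstar and orange squares Manitou lines, with solid lines for winter and dashed lines for spring habit. Winter Norstar lies highest from 14 to 56 days in 7 panels. Of these days, all except 56 days chose the members for a higher signal in winter than in spring habit. The 9 panels are a selection of probesets, so the order and the number of panels are a description only. In Ta.3249.1.S1_at the 4 means lie between 9.70 and 10.04 at 56 days.

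Few members were higher in the winter lines of both backgrounds once the treatment had passed 42 days. At 56 days 7 of the 150 members were called in both, where 0.2% of all probesets were. At 70 days 5 of the 150 were, a share near the 2.45% of all probesets, so the members named for that day are a description. At 0 and at 2 days 0 were (0.00634% and 0.00317%). TaAffx.65068.1.A1_at was called in both backgrounds at 56 and at 70 days. At 70 days it was 8.52, 8.07 and 8.45 in winter and 7.34, 7.41 and 7.89 in spring Norstar, and 7.58, 7.68 and 7.94 in winter and 6.62, 6.43 and 6.69 in spring Manitou. The groups did not overlap, and the differences were 0.80 and 1.15 (SE 0.15 each, adjusted p = 2.3e-05 and 1.3e-08). In Manitou TaAffx.65068.1.A1_at separated the habits before the cold as well, with 8.05, 8.05 and 8.41 against 6.80, 6.53 and 6.97 at 0 days (1.40, adjusted p = 5.5e-10), whereas in Norstar the samples were 7.18, 7.54 and 7.62 against 7.46, 7.43 and 7.79. Ta.11162.1.S1_at, of the gibberellin-regulated GASA family (GASR2 in rice), was higher by 0.70 and 1.09 in Norstar and by 0.63 and 0.63 in Manitou at 56 and 70 days (SE 0.12 each, adjusted p of 0.00033 or less). Ta.4726.1.S1_at, described as a cyclopropane fatty acid synthase, was higher by 0.88 and 1.50 in Norstar and by 0.70 and 0.78 in Manitou. Of the unnamed members, Ta.16792.1.S1_at was higher by 1.73 and 1.58 in Norstar and by 1.13 and 0.77 in Manitou. Ta.16250.1.S1_at was called in both backgrounds only at 56 days, by 1.83 and 1.45, and TaAffx.92408.1.S1_at only at 70 days, by 2.02 and 0.87. In Manitou, Ta.16250.1.S1_at at 56 days did not pass without any 1 of the 3 replicates, and TaAffx.92408.1.S1_at at 70 days did not pass without replicate 2. Ta.4726.1.S1_at at 70 days in Manitou did not pass without replicate 2 or 3. Ta.16792.1.S1_at in Manitou did not pass at 56 days without replicate 2, and at 70 days it did not pass without replicate 2 or 3, nor with array weights, which gave 0.32. TaAffx.65068.1.A1_at at 70 days in Norstar was 0.61 and did not pass without replicate 1.

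Many members rose over the first 2 days of cold. From 0 to 2 days 71 of 150 rose and 11 fell in winter Norstar, where 12.6% and 14.8% of all probesets rose and fell, and 74 rose and 10 fell in spring Norstar (13.8% and 12.4%). In winter Manitou 62 rose and 16 fell (15.5% and 14.2%), and in spring Manitou 51 rose and 18 fell (14.3% and 14.4%). The median changes were 0.64, 0.67, 0.51 and 0.34 in this order, against 0.02 to 0.04 over all probesets tested. With the block within day 18 members fell in winter Norstar. Without replicate 1 the counts that fell were 5 in winter Norstar, 5 in spring Norstar and 9 in winter Manitou. Without replicate 2, 6 fell in spring Norstar, and without replicate 3, 7 fell in winter Norstar, 6 in spring Norstar and 11 in spring Manitou. The 4 lines were not compared with each other in this response.

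In all 4 lines 49 members rose (8.25% of all probesets did) and 5 fell (8.34%), while 46 were called in no line. The share of all probesets called in no line was not counted, so the 46 are a description. The dehydrin Ta.25026.1.S1_at was one of the 5 with the largest mean rise. It went from 8.27, 8.93 and 8.88 to 12.30, 12.48 and 12.24 in winter Norstar, and from 6.77, 7.17 and 6.74 to 10.84, 11.14 and 9.95 in spring Manitou. The rises were 3.65 and 3.75 (SE 0.25 each, adjusted p = 1.8e-19 and 3.4e-20). The others were Ta.8037.1.A1_at, Ta.7934.3.S1_at, Ta.345.1.S1_at and TaAffx.95521.1.S1_at, with rises of 2.37 to 4.58 and no name here. Of the 12 cold-regulated and LEA members 11 rose in the winter and 12 in the spring line of Norstar, and 11 and 9 in those of Manitou, and 0 fell in any line. The 5 members that fell in all lines included both light-harvesting probesets Ta.3249.1.S1_at (by -1.34 to -1.52) and Ta.3249.3.A1_at, the MADS-box factor Ta.21250.1.S1_at (by -0.70 to -0.83), and Ta.9749.1.A1_at and Ta.30935.1.S1_at, with no name here.

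**Figure D3:**
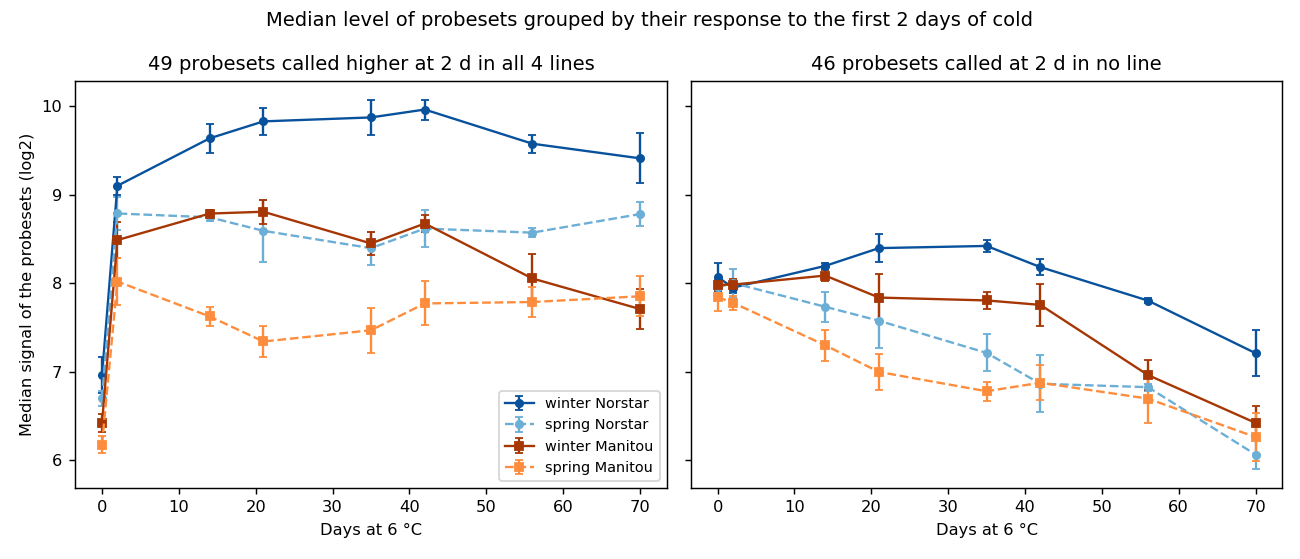
Median log2 signal of 49 members that rose from 0 to 2 days in all 4 lines (left) and of 46 called in no line (right), against days at 6 °C. Points are means of 3 arrays and bars are their SD. The arrays of 0 and 2 days chose both groups, so the course between these days is a description. On the left winter Norstar reaches 9.97 at 42 days. On the right the lines start between 7.84 and 8.07 and end between 6.06 and 7.21.

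Both kinds of members were higher in the winter line of Norstar late in the treatment. Among the 49 that rose in all lines, 27 were called higher in winter Norstar at 56 days and 10 at 70 days. Of all probesets 3.0% and 9.17% were. Among the 46 called in no line at 2 days, 35 and 33 were called higher on these days. The median signal of the 49 in winter Norstar was 6.96 at 0 days, 9.10 at 2 days and 9.58 at 56 days, and in spring Norstar 6.70, 8.79 and 8.57. For the 46 it was 8.07, 7.95 and 7.80 in winter Norstar and 7.95, 8.00 and 6.82 in spring Norstar. The arrays of 0 and 2 days chose both groups, so the medians of these days are a description. The highest mean of the time course fell between 14 and 42 days for 120 of the 150 members in winter Norstar and 99 in winter Manitou, and for 43 and 29 in the spring lines, a count that uses the days of the choice and is a description only.

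From 2 to 70 days more members fell than rose in every line. In winter Norstar 60 fell and 22 rose, where 19.9% and 20.3% of all probesets did. In spring Norstar 79 fell and 16 rose (28.2% and 25.7%), in winter Manitou 87 and 10 (22.7% and 22.1%), and in spring Manitou 76 and 24 (27.6% and 25.9%). On the log2 scale the median change was -0.36 in the winter and -0.75 in the spring line of Norstar. In Manitou the median was a 1.99-fold decrease in the winter and a 1.63-fold decrease in the spring line. The number that rose in winter Norstar was 13 without replicate 1 and 12 without replicate 3, and in spring Manitou it was 14 without replicate 3. With array weights 18 rose in winter Manitou. The 2-day arrays entered both this comparison and that of 0 to 2 days.

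Many members also had a higher signal in the Norstar than in the Manitou background. Over 0, 2, 56 and 70 days, and with both habits given equal weight, 97 of 150 were called higher in Norstar and 5 higher in Manitou, where 16.1% and 20.1% of all probesets were. With the block within day, or with array weights, 9 were higher in Manitou. The median difference was 0.42 (1.34-fold). This mean includes the late days, at which the habits differed more in Norstar. At 0 days the median log2 signal of the 150 members was 7.79 in the winter and 7.59 in the spring line of Norstar, and 7.50 and 7.39 in those of Manitou. At 70 days these medians were 8.07, 7.30, 7.13 and 7.02. The largest was that of TaAffx.56641.1.A1_at, at 4.13 (17.5-fold, SE 0.08, adjusted p = 2.3e-53). At 0 days this probeset stood at 9.81, 9.94 and 10.23 in winter Norstar and 9.75, 9.88 and 9.80 in spring Norstar, but at 6.58, 6.30 and 6.37 in winter Manitou and 6.31, 6.09 and 6.48 in spring Manitou. The backgrounds did not overlap, and the habits did. Ta.3100.2.S1_at was higher in Norstar by 2.37 and the aquaporin Ta.25860.1.A1_at by 1.99. Ta.20215.1.S1_at, Ta.11011.1.S1_at and Ta.30935.1.S1_at were higher in Manitou, with differences of -1.52, -1.27 and -0.44, and the last did not pass without any 1 of the 3 replicates. The arrays carry probes of fixed sequence, so that a sequence difference between the cultivars under a probe and a difference in transcript level cannot be told apart in this comparison. Of the 49 members that rose at 2 days in all lines, 45 were higher in Norstar, and of the 46 called in no line, 23. The arrays of 0 and 2 days that chose these groups also enter this comparison, so both counts are a description.

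The late difference between the habits itself was compared between the backgrounds. Over 56 and 70 days 43 of 150 members had a larger winter minus spring difference in Norstar than in Manitou and 0 a smaller one, against 1.3% and 1.27% of all probesets (2.57% in either direction). With the block within day there were 71, and without replicate 1, 2 or 3 there were 16, 18 and 17. Among the 43 the median difference was 1.10 in Norstar and 0.12 in Manitou, and 28 of them were above 0 in Manitou. The largest was that of Ta.6019.1.S1_at, at 2.54 (SE 0.40, adjusted p = 1.2e-05), and the next were Ta.7915.1.A1_at (2.42), Ta.28351.1.S1_at (2.20), Ta.13232.2.S1_at (1.78) and TaAffx.8335.1.S1_at (1.69). Ta.28351.1.S1_at did not pass without any 1 of the 3 replicates and was 1.31 without replicate 1. Ta.13232.2.S1_at did not pass without replicate 1 or 3, nor TaAffx.8335.1.S1_at without replicate 3. TaAffx.8335.1.S1_at was called higher in Norstar on one day and lower in Manitou on another. At 56 days it was 8.81, 8.36 and 8.97 in winter and 7.27, 7.15 and 6.68 in spring Norstar, higher by 1.68 (adjusted p = 2.6e-05), and at 70 days it was 6.59, 5.61 and 5.80 in winter and 7.46, 7.62 and 7.86 in spring Manitou, lower by 1.65 on the log2 scale (-1.65, adjusted p = 3.4e-05). The Norstar difference at 70 days (-0.58) and the Manitou difference at 56 days (-0.64) did not pass. The sterol desaturase probeset Ta.13232.1.S1_at, of the same cluster as Ta.13232.2.S1_at, was also lower in winter Manitou at 70 days (-1.39, SE 0.31, adjusted p = 0.00085). CBFIVb-A20 (Ta.2781.1.S1_at) differed between backgrounds by 0.98, which did not pass (adjusted p = 0.05).

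**Figure D4:**
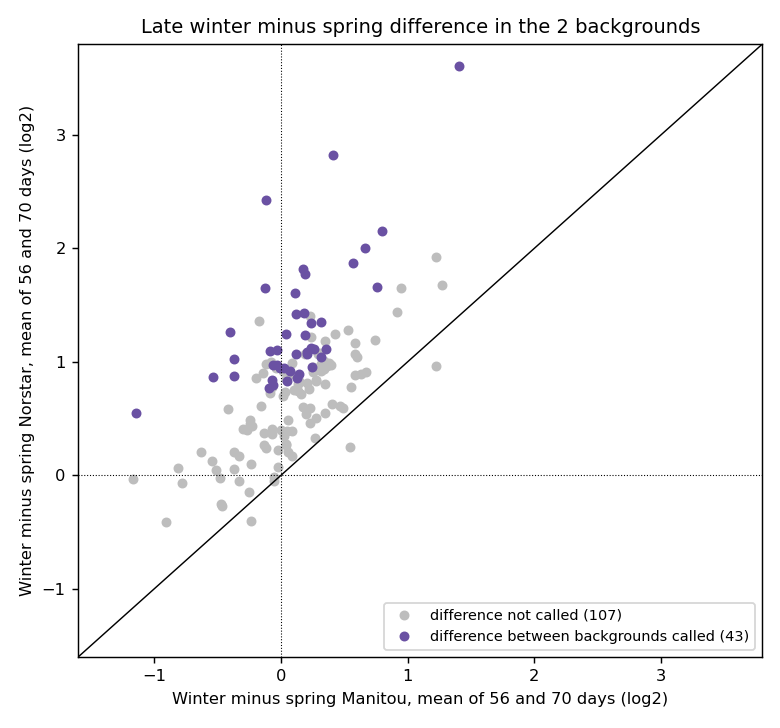
Mean winter minus spring difference (log2) over 56 and 70 days in Manitou (horizontal) and Norstar (vertical). Each point is 1 of the 150 members, the solid line marks equal differences, and purple points are the 43 members whose difference was called between backgrounds. All 43 lie above the line, with Norstar above 0.

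Other genes of these lists were tested too, and the shares of all probesets for these comparisons are those given above. They too had a description, and so were selected by the study on these samples, which those shares do not allow for. On the list of cold-regulated and LEA proteins 26 probesets tested were not members, and 9 of them were called higher and 1 lower in winter Norstar at 56 days, and 0 and 1 in Manitou. At 70 days as many were lower as higher in Norstar, 4 each, and 0 were higher and 2 lower in Manitou. From 0 to 2 days 18 of the 26 rose in the winter and 17 in the spring line of Norstar, and 9 and 10 in those of Manitou. Of the 27 probesets that the study listed, chosen by it on these samples and left out of the members, 12 were higher and 3 lower in winter Norstar at 56 days and 2 and 1 in Manitou, and 4 and 4, and 1 and 2, at 70 days. On the photosynthesis and chloroplast list 75 probesets were not members, of which 15 were higher and 6 lower in winter Norstar at 56 days and 4 and 5 in Manitou, and 16 and 13, and 2 and 6, at 70 days.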

How the data were processed

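Expression was measured on Affymetrix Wheat GeneChips in 96 samples. The authors deposited log2 signals that had been normalized and summarized by RMA in GeneSpring (version not given in the sources used here), and these log2 values were used without further scaling. RMA as usually run gives the arrays a common distribution and compresses differences of dim probesets. The members and gene lists were chosen with earlier results of these data known. One label field gave another duration for the samples taken here as 21 days.

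Probesets whose highest mean over the 32 groups was at least 5.15 (log2) were kept, which left as many as the study's detection filter. Of these, 7745 named _x_at or _s_at were set aside and 31543 tested. Contrasts of a linear model of the 32 means (limma 3.58.1, R 4.3.3, with version 1.17.8 of the data.table package) were adjusted over all probesets tested by the Benjamini-Hochberg method and called at 0.01. The median residual SD was 0.149. The procedure was tested on simulated arrays. Counts used pandas 2.3.3 and numpy 2.4.6, and figures matplotlib 3.10.9, in Python 3.11.15. Precision is limited by having 3 arrays a group.

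The design text names a random block design. Deviations of the winter and spring arrays with the same replicate number correlated above 0.1 in all 3 pairs at 0, 56 and 70 days in Norstar and 0, 2 and 70 days in Manitou, and not in all pairs at 2 days in Norstar or 56 days in Manitou. The labels do not say that the number marks a block. A fit with a block for replicate number within day is therefore given beside counts that it moved by over 1.5 times.

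Members were named by rule: the 15 with the largest smaller D, the 20 leading ones with a description, up to 3 for each gene list, the 4 called in both backgrounds with the largest differences at each day, the 5 largest rises and falls at 2 days, the 3 largest background differences each way, the 5 largest differences between backgrounds, and those ranked next to the threshold. Alternatives were the brightness limit, the name filter, median centring, array weights, subsets of lines, replicate blocks and the removal of each replicate. The removal of the replicate 2 arrays at 0 days was added after the values were seen.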

Additional observations from a re-analysis of the deposited data

Results flagged for a closer look

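The winter minus spring difference over 56 and 70 days differed between the backgrounds, by a test of that difference in limma at an adjusted p of 0.01, for 43 of the 150 members. Those among the probesets picked by the naming rule are given here as Norstar minus Manitou on the log2 scale. The difference was 2.54 for the LEA probeset Ta.6019.1.S1_at, 2.42 for Ta.7915.1.A1_at, 2.20 for Ta.28351.1.S1_at, 1.78 for Ta.13232.2.S1_at and 1.40 for Ta.13232.1.S1_at of the same cluster. It was 1.69 for TaAffx.8335.1.S1_at, 1.65 for Ta.23397.2.S1_at and 1.25 for TaAffx.98930.1.A1_at. It was 1.33 for the aquaporin Ta.25860.1.A1_at, 0.91 for the galactinol synthase Ta.30113.1.S1_at, 0.92 for the hexokinase Ta.5163.1.S1_at and 0.86 for the sucrose synthase Ta.11152.2.A1_a_at. It was 0.88 for the defensin Ta.27229.1.S1_at, 1.21 for the glycine-rich protein Ta.6187.1.S1_at and 0.95 for peroxiredoxin Q (Ta.6572.1.S1_at). It was 0.90 for TaAffx.92408.1.S1_at and 0.85 for Ta.13242.3.S1_a_at. All of these were positive. The 3 samples of spring Manitou at 70 days were far apart for Ta.28351.1.S1_at, at 9.12, 4.98 and 4.88.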

How the results depend on the processing

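Of 369 alternative values for 37 results of single probesets, 341 kept their direction and their side of the threshold, 28 no longer passed, 24 of them without 1 replicate, and 0 were reversed. Of the 1007 member calls of the 18 comparisons, 16 were lost after centring the arrays on their medians, 22 with array weights, 1 with the replicate block and 0 with the replicate block within day, none with another sign. Without 1 replicate, 188 to 221 calls were lost, where fewer samples were fitted. The set itself kept 126 to 131 of its 150 members without 1 replicate.

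The counts that moved by over 1.5 times follow, and the cause was not tested. With the replicate block within day the members called higher in winter habit were 4 and 2 in Norstar at 0 and 2 days and 2, 5 and 18 in Manitou at 0, 2 and 56 days. With that block 18 fell from 0 to 2 days in winter Norstar, 9 were higher in the Manitou background and 71 differed between backgrounds. With a replicate block over all days 2 were called in Manitou at 0 days. Array weights gave 3 and 2 in Norstar at 0 and 2 days and 5 and 25 in Manitou at 2 and 56 days, with 18 that rose from 2 to 70 days in winter Manitou and 9 higher in the Manitou background. A fit to Manitou alone gave 2 and 4 at 0 and 56 days, and centred arrays gave 0 in Norstar at 0 days. The added removal of replicate 2 at 0 days also gave 0 there.

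Without 1 replicate the members called higher in winter Norstar ranged from 0 to 0 at 0 and at 2 days and from 50 to 66 at 56 days. In Manitou they ranged from 1 to 2 at 2 days, from 2 to 6 at 56 days and from 1 to 8 at 70 days. Those that fell from 0 to 2 days ranged from 5 to 8 in the winter and 5 to 6 in the spring line of Norstar, and from 9 to 12 and 11 to 16 in those of Manitou. Those that rose from 2 to 70 days ranged from 12 to 21 in winter Norstar and 14 to 24 in spring Manitou, and those whose difference between habits differed between backgrounds from 16 to 18. A count of 1 or 0 at 0 and 2 days does not show that the habits were alike, since 3 arrays a group limit the precision.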
